A study of Drosophila melanogaster and Nicrophorus vespilloides with 16 samples.

Results

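Small noncoding RNA genes of the fly are described here by the H3K4me3 summits that lay beside them. A summit is the single base at which a peak of immunoprecipitated DNA is highest, and a summit was taken as a member when it lay within 500 bp of either end of a gene that the RefSeq table of Drosophila melanogaster classes as tRNA, snRNA, snoRNA or miRNA. Of 19036 summits in 4 fly lists, 194 were members, and they touched 88 of the 851 such genes on the 6 chromosome arms. Of the members, 49 had no protein-coding gene end within 500 bp and 145 had one, so most summits selected by a small RNA gene were also summits at a coding gene end.

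The study adapted a solid-state chromatin immunoprecipitation kit (Chromatrap) to insect tissue, with an antibody against trimethylated lysine 4 of histone H3 (H3K4me3). The fly samples were 4 biological replicates, per the labels, of 30 whole 3rd instar larvae each of the wild-type strain Oregon-R, with no treatment or engineered allele. Tissue was fixed in 1% formaldehyde for 10 min, sonicated for 10 min in total, and 30 µg of chromatin was taken into the assay. The 4 fly input libraries and the beetle libraries were not analysed here, and p-values measure the spread between these 4 replicates. All larval tissues were pooled, so a mark held by few cells and a weak mark held by many cannot be told apart.

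H3K4me3 is laid down around the starts of genes that RNA polymerase II transcribes actively. The 4 classes reach their RNA by different routes. tRNA genes are transcribed by RNA polymerase III from promoter elements inside the gene, and snRNA genes, most of which make the RNAs of the spliceosome, have compact promoters of their own that recruit polymerase II or, for U6 and 7SK, polymerase III. Most fly snoRNAs, the guides for methylation and pseudouridylation of ribosomal RNA, are cut out of introns of a host gene, and miRNA hairpins are cut out of longer polymerase II transcripts or introns.

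The number of summits per list was 3518, 4969, 5236 and 5313 in replicates 1 to 4. Only peak lists were used, so read depth is unknown and fewer summits in replicate 1 cannot be told apart from fewer reads. No position and score occurred in 2 lists, so no list repeated another.

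Members followed the size of the list. Replicates 1 to 4 held 36, 49, 56 and 53 small RNA summits, 48.5 ± 8.81 per replicate (SD, n = 4), or 1.02% ± 0.037 of all summits. Replicate 1 had the fewest and the other three lay within 7 summits of each other.

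Summits without a coding end numbered 10, 15, 13 and 11 in replicates 1 to 4, against 26, 34, 43 and 42 with a coding end. They made up 25.6% ± 4.44 of the members, and among all fly summits the share that lacked a coding end was 13.5% ± 1.19 (SD, n = 4 each). The 4 values for members, 20.8% to 30.6%, lay above the 4 values for all summits, 12.8% to 15.3%. That contrast belongs to the limit of 500 bp. With no coding end within 1000 bp the share among members was 5.24% ± 3.64 (SD, n = 4), or 0, 4, 4 and 3 summits. At that limit 92, 201, 279 and 409 summits lay away from small RNA ends in replicates 1 to 4. Many of the 49 sat close to the limit of the definition. Of them, 18 lay 501 to 600 bp from a coding end, 20 lay 601 to 1000 bp away and 11 lay farther.

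By class of the nearest small RNA gene, snoRNA genes held 8, 9, 6 and 7 summits without a coding end in replicates 1 to 4, against 16, 22, 26 and 26 with one. The miRNA genes held 2, 6, 7 and 4 without a coding end, against 10, 10, 15 and 14 with one. Summits nearest a tRNA gene numbered 0, 2, 2 and 2, each with a coding end, and none in any replicate lacked one. Within 500 bp of an snRNA gene no summit was listed in any replicate.

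**Figure D1:**
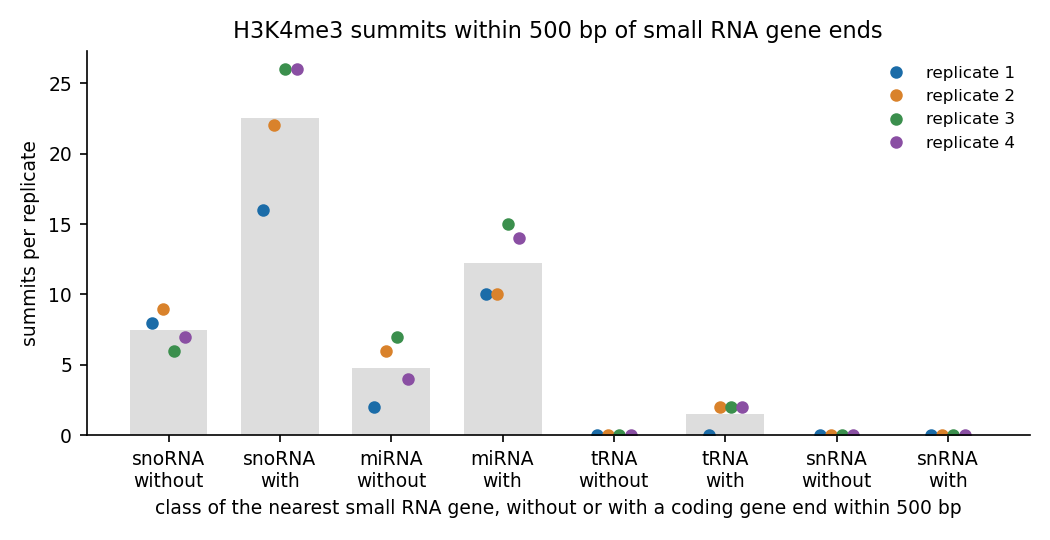
Number of summits per replicate (vertical axis) within 500 bp of a small RNA gene end, by class of the nearest small RNA gene and without or with a protein-coding gene end within 500 bp; points are the 4 replicates and bars their mean. Summits with a coding end outnumber those without one at snoRNA genes (mean 22.5 against 7.5) and miRNA genes (12.2 against 4.75), and snRNA genes have none.

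Genes count as marked here where 3 or 4 of the replicates had a summit no more than 500 bp from one of the gene's ends. On that basis 50 of 851 small RNA genes were marked, 5.88%, against 29.9% of all 17684 genes on the 6 arms and 36.1% of 13922 protein-coding genes. Among noncoding genes outside the 4 classes 7.28% were marked. That pool is mixed, with 3.16% of 1959 long noncoding RNA genes and 24.1% of 503 antisense RNA genes marked. The share of small RNA genes was therefore below that of coding genes and near that of the pool. It lay above the share of long noncoding RNA genes and below that of antisense RNA genes. The count depends on the settings, with 24 marked small RNA genes in a window of 250 bp, 112 in one of 1000 bp, 33 with equal numbers of summits per replicate and 25 where all 4 replicates were required.

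The classes differed. Of 269 snoRNA genes 31 were marked (11.5%), of 260 miRNA genes 16 (6.15%), of 290 tRNA genes 3 (1.03%), and of 32 snRNA genes 0. The number of replicates required does not set the zero, because no snRNA gene had a summit even in 1 replicate.

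In single replicates the share of snoRNA genes with a summit was 10.8%, 16.0%, 14.9% and 16.4%. The share of miRNA genes was 4.23%, 5.77%, 7.69% and 6.92%, and that of tRNA genes 0.345%, 1.38%, 1.03% and 0.69%. Coding genes stood at 27.7%, 36.9%, 39.7% and 40.8%. The order snoRNA over miRNA over tRNA over snRNA held in each of the 4 replicates, and each class stayed below coding genes in all 4. Its last step rests on few genes, with a summit in any replicate at 4 of 290 tRNA genes and 0 of 32 snRNA genes. It is too small to rank those classes.

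Small RNA genes are short, with medians of 73 bp (tRNA), 92 bp (miRNA), 134 bp (snoRNA) and 154 bp (snRNA) against 2163 bp for coding genes, so that 1 summit can serve both ends of a small gene. Counted end by end, 10.4% of 538 snoRNA ends, 5.58% of 520 miRNA ends, 0.69% of 580 tRNA ends and 0 of 64 snRNA ends had a summit in at least 3 replicates, against 19.5% of 27844 coding gene ends. The order of the classes was the same as for whole genes.

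**Figure D2:**
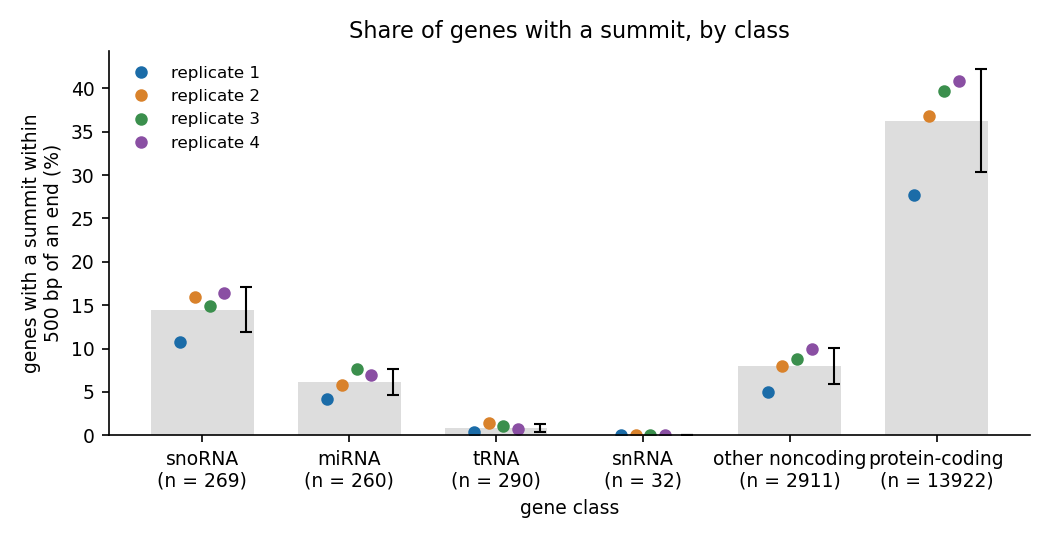
Percentage of genes with a summit within 500 bp of an end in each replicate (vertical axis), by gene class; points are the 4 replicates, bars the mean and black lines ± SD. The snoRNA genes lie between 10.8% and 16.4%, miRNA genes between 4.23% and 7.69%, tRNA genes at or under 1.38% and snRNA genes at 0, with protein-coding genes at 27.7% to 40.8%.

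How far a small RNA gene lay from a coding gene end went with whether it was marked. Within 500 bp of a coding end, 18 of 58 snoRNA genes, 11 of 55 miRNA genes, 3 of 70 tRNA genes and 0 of 11 snRNA genes were marked. At 501 to 1000 bp the counts were 10 of 62 snoRNA genes, 4 of 41 miRNA genes, 0 of 34 tRNA genes and 0 of 4 snRNA genes. Beyond 1000 bp only 4 of 516 genes were marked, 0.775%, of which 3 were snoRNA genes and 1 was a miRNA gene.

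**Figure D3:**
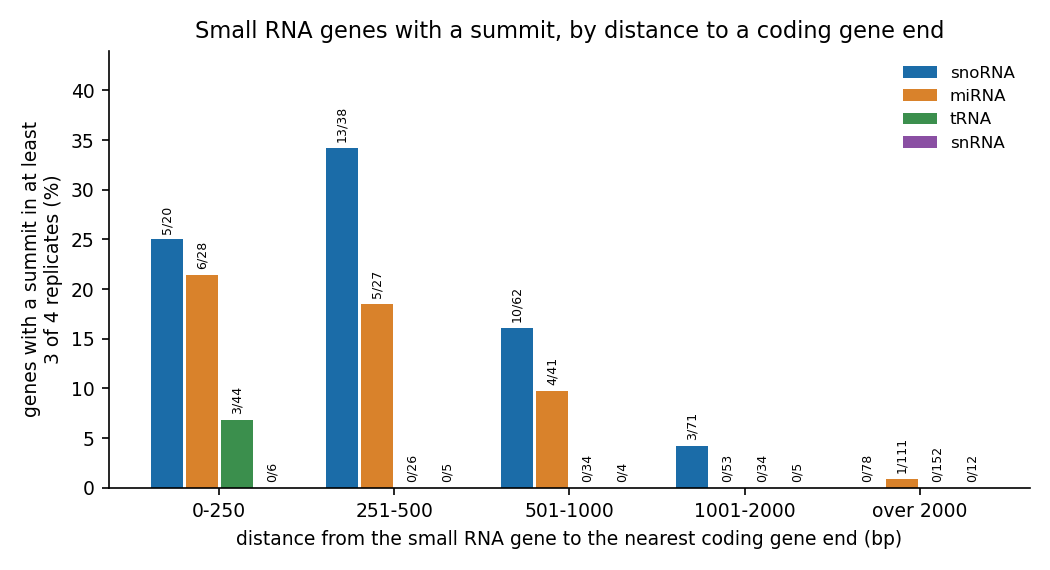
Percentage of small RNA genes with a summit within 500 bp of an end in at least 3 of 4 replicates (vertical axis), by distance from the gene to the nearest protein-coding gene end (horizontal axis, bp) and by class; fractions give marked genes over all genes in the bin. Marked snoRNA and miRNA genes concentrate within 1000 bp of a coding end, and beyond 2000 bp only 1 of 111 miRNA genes and none of the other classes is marked.

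The coding genes beside the small RNA genes also differed by class. Of coding genes with an end within 500 bp of a snoRNA gene, 34 of 54 were marked (63.0%), against 27 of 64 beside miRNA genes (42.2%), 18 of 63 beside tRNA genes (28.6%) and 3 of 13 beside snRNA genes (23.1%). The share beside snoRNA genes was above the 36.1% of all coding genes and the share beside tRNA genes was below it. The neighbours thus ran in the order of the small RNA classes themselves, and their part in that order was not tested.

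The median distance to the nearest summit in any replicate was 1384 bp for snoRNA genes, 7352 bp for miRNA genes, 13310 bp for snRNA genes and 14790 bp for tRNA genes, against 992 bp for coding genes. The snRNA and tRNA genes changed places in this order, and more than 10 kb separated 65.2% of tRNA genes and 56.2% of snRNA genes from any summit, against 27.8% of coding genes.

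Summits without a coding end were then taken on their own. In at least 3 of 4 replicates such a summit lay beside 11 small RNA genes, 1.29% of 851, against 1.2% of the 2911 noncoding genes outside the 4 classes. Within that pool the share was 0.715% for long noncoding RNA genes and 1.19% for antisense RNA genes. Of the 11, 9 were snoRNA genes (3.35% of the class) and 2 were miRNA genes (0.769%), with no tRNA or snRNA gene. The total is near the share of other noncoding genes and is no result about small RNA genes as a whole. Where the summit had to be more than 1000 bp from a coding end, 1 gene was left, and where it had to be over 500 bp from the end of any gene outside the 4 classes, 2 were.

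Per length of sequence the picture was uneven. In sequence with no coding end within 500 bp, summits within 500 bp of a small RNA gene end numbered 23.4 ± 4.24 per Mb, against 5.62 ± 1.32 per Mb in the sequence farther from small RNA ends (SD, n = 4 each). At 501 to 1000 bp from a small RNA end the density was 36.0 ± 12.8 per Mb, and at 1001 to 2000 bp it was 9.81 ± 3.03 per Mb. The density was therefore not highest in the window nearest the small RNA genes.

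By class the density was 57.9 ± 9.97 per Mb beside snoRNA ends and 24.4 ± 11.4 per Mb beside miRNA ends, with no summit in the 0.18 Mb beside tRNA ends or the 0.0236 Mb beside snRNA ends. With coding ends kept at least 1000 bp away, the density was 2.77 ± 5.53 per Mb beside snoRNA ends and 15.8 ± 11 per Mb beside miRNA ends, against 2.45 ± 1.33 per Mb in the sequence more than 500 bp from any small RNA end (SD, n = 4 each). Over all classes it was 6.62 ± 4.56 per Mb within 500 bp of a small RNA end, and 23.1 ± 10.2 per Mb at 501 to 1000 bp from one, so the miRNA value was not the highest at this setting. For snoRNA genes that value rests on 1 summit in replicate 2, whereas beside miRNA ends replicates 1 to 4 held 0, 3, 4 and 3 summits.

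Summit scores are the authors' −log10 values and are not scaled between libraries, so each summit was placed as a percentile of its own replicate, where the highest score has percentile 100. The median percentile of small RNA summits without a coding end was 43.2, 12.4, 26.5 and 38.8 in replicates 1 to 4. With a coding end it was 42.4, 47.0, 51.5 and 58.1. Summits at coding ends only had 52.9, 53.6, 53.5 and 54.7, and summits near neither had 30.3, 23.7, 18.9 and 15.

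Small RNA summits without a coding end thus ranked below summits at coding ends only in 4 of 4 replicates, by a mean of -23.5 percentile points ± 13.8 (SD, n = 4). The exact sign-flip permutation test over replicates gave p = 0.12, two-sided, the smallest that 4 replicates allow, and 0.25 after Benjamini-Hochberg adjustment over 4 comparisons. Relative to summits near neither kind of gene they were higher in 3 of 4 replicates, by 8.24 ± 14.7 points (exact p = 0.375, adjusted 0.375), a difference smaller than its spread. The difference from summits at coding ends only shrank to -7.45 points among summits with a score of at least 5 and to -1.33 points with equal numbers of summits per replicate.

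Small RNA summits with a coding end differed from summits at coding ends only by -3.94 ± 6 percentile points, lower in 3 of 4 replicates (exact p = 0.375, adjusted 0.375), and by 1.33 points the other way in a window of 1000 bp. They ranked above summits near neither by 27.8 ± 13.2 points in 4 of 4 replicates (exact p = 0.12, adjusted 0.25). Their median distance to the coding end was 226 ± 10.1 bp, against 209 ± 13.8 bp for summits at coding ends only (SD, n = 4 each). Both kinds were chosen to lie within 500 bp of a coding end, so these distances are a description of the members. Of them, 44.8% ± 3.53 lay nearer the coding end than the small RNA end. Summits without a coding end lay at a median of 123 ± 56.3 bp from the small RNA end, and 0, 3, 2 and 4 of them in replicates 1 to 4 fell inside the small RNA gene.

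**Figure D4:**
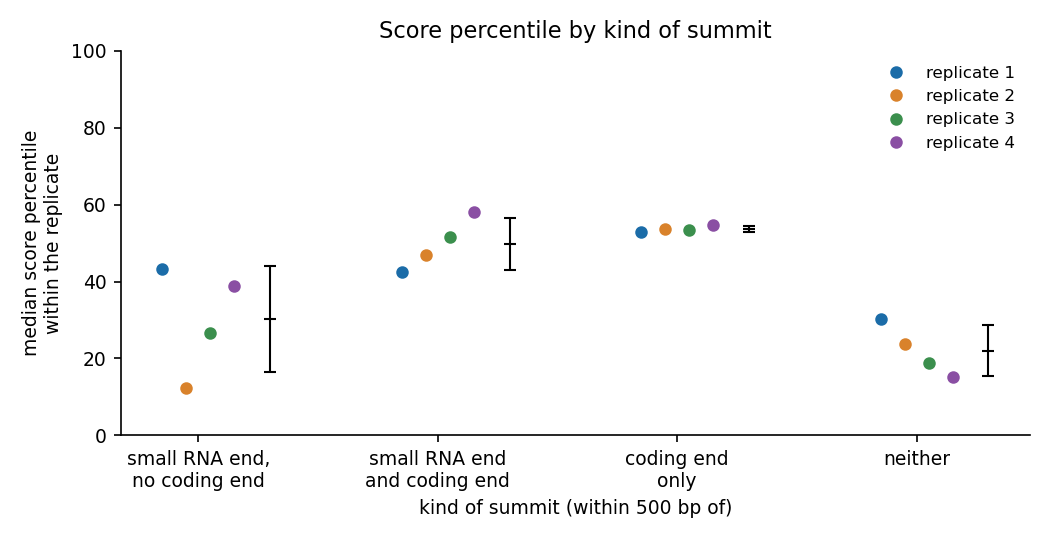
Median score percentile within each replicate (vertical axis) for the 4 kinds of summit, sorted by whether a small RNA gene end, a coding gene end, both or neither lay within 500 bp; points are replicates and black marks the mean ± SD. Small RNA summits without a coding end lie at 12.4 to 43.2, below the 52.9 to 54.7 of summits at coding ends only in every replicate.

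Summits of different replicates at most 250 bp apart were chained into regions, which gave 79 regions at small RNA genes with a median span of 71 bp and a widest span of 388 bp. Of the 33 regions that held a small RNA summit without a coding end, 13 were found in at least 3 replicates (39.4%), and of the 46 with a coding end at each such summit, 36 (78.3%). Of regions at coding ends only, 3939 of 5539 were (71.1%), and of regions near neither, 238 of 1412 (16.9%). A replicate counted towards these shares through any summit in the region, also one with a coding end. Of the 33 regions, 26 held no summit with both a small RNA end and a coding end. Of these 26, 8 were found in at least 3 replicates (30.8%). The 39.4% and the 30.8% both lay between the shares of coding regions and of the remaining ones. The share of 39.4% depended on the chaining distance, at 24.2% with 100 bp and 66.7% with 500 bp. As a description of the limit, the members nearest it lay 498 bp from snoRNA:Me28S-C3420b (replicate 2) and 497 bp from mir-4974 (replicate 1), and the nearest summits left out lay 501 and 502 bp from mir-4912 (replicates 3 and 1).

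The snoRNA genes carried most of the marked cases. Sorted by host, a grouping chosen after values were seen, 10 of 43 snoRNA genes inside a Uhg gene and no coding gene were marked (23.3%), 17 of 76 inside a ribosomal protein gene (22.4%), 4 of 137 inside another coding gene (2.92%) and 0 of 12 with no host. Uhg genes are noncoding genes whose introns carry snoRNAs. Hosts also differed in position. The median distance to a coding end was 858 bp for Uhg-hosted, 694 bp for ribosomal-hosted and 1788 bp for other coding-hosted snoRNA genes. Within 1000 bp of a coding end, 8 of 22 Uhg-hosted, 16 of 56 ribosomal-hosted and 4 of 34 other coding-hosted genes were marked.

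The host genes themselves were marked more often than their snoRNAs. Of 96 coding hosts of snoRNA genes 68 were marked (70.8%), and of the 29 that encode ribosomal proteins 28 were. For all coding genes the share was 36.1%. Coding hosts of miRNA genes were marked in 64 of 148 cases (43.2%), those of tRNA genes in 12 of 72 (16.7%) and those of snRNA genes in 2 of 10. By comparison, 21 of the 213 snoRNA genes inside coding genes were marked themselves (9.86%).

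Among snoRNA genes called without a coding end, snoRNA:Me28S-G2173 (chr2R:22606795-22606861, inside RpS16), whose symbol gives it as a methylation guide for 28S ribosomal RNA, had the highest mean percentile. Its summits stood at percentiles 54.6, 94.8 and 69.0 in replicates 2 to 4, with scores of 9.34, 31.3 and 32.2, and lay 135 to 491 bp from the gene and 559 to 915 bp from an end of RpS16. Replicate 1 had no such summit within 500 bp. The summits of replicates 3 and 4 formed a region with a replicate 1 summit that lay farther from the gene, with a score of 7.48. The replicate 2 summit was a separate region, so the call joins different regions.

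Of the 9 snoRNA genes called without a coding end, 8 lay in Uhg genes. In Uhg1 (chr2R:17699097-17703344) a summit at percentiles 70.4, 70.6 and 38.8 in replicates 2 to 4 (scores 11.4, 20.0 and 20.2) lay 123 to 160 bp inside one end of the host. It lay inside snoRNA:Me28S-G3081a in each of these replicates, 12 to 27 bp from the nearer end of that gene. It also served snoRNA:Me28S-A3407a, 445 to 482 bp away. The other Uhg1 snoRNA genes had no summit, so 2 of 16 were marked. In Uhg2 (chr2L:9893805-9895003) a summit at percentiles 76.6, 50.3 and 23.1 in replicates 2 to 4 (scores 12.4, 15.3 and 13.5) served snoRNA:Me18S-A1576, snoRNA:Me18S-G1620 and snoRNA:U14:30Ea at once. It lay 275 to 346 bp from an end of Uhg2 and 559 to 630 bp from the coding gene Bka. Replicate 1 had no summit at either host.

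The other Uhg genes were read after their values were seen. Uhg4 (chr2R:9095273-9097312) had summits in all 4 replicates, at percentiles 25.6, 23.0, 20.1 and 76.0 and 150 to 273 bp from its end, and 3 of its 7 snoRNA genes were marked. Uhg3 (chr2L:20647533-20648848) also had summits in all 4, at percentiles 3.38, 90.4, 61.1 and 60.5, low in replicate 1 and high in the others, and 2 of its 3 snoRNA genes were marked. The Uhg3 region had a coding end within 500 bp of every summit, as near as 239 bp (CG2608). Uhg4 summits lay at least 765 bp from a coding end. Uhg5 and Uhg8 had summits in replicates 2 and 4 only, and Uhg7, which overlaps the end of the coding gene RpL23A, had none. Summits within 500 bp of an end of Uhg2 and Uhg5 came as near as 131 and 74 bp to a coding end. The highest summits at Uhg1 to Uhg4 lay within 346 bp of an end of the host in each replicate that had one. Summits that serve several snoRNA genes are not separate observations, and 37 of the 194 members lay beside 2 or more small RNA genes.

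At other snoRNA genes a summit shared with a coding end was found in all 4 replicates. The region at snoRNA:Me18S-C1831 (chr2L:4457603-4457674), inside RpL27A, stood at percentiles 70.9, 70.4, 88.0 and 67.7 in replicates 1 to 4, with summits 277 to 432 bp from an end of RpL27A. That at snoRNA:Me28S-A2113 (chr2L:19008611-19008683), inside RpL30, stood at 33.5, 86.1, 78.8 and 85.1, lower in replicate 1. That at snoRNA:Me18S-A469 (chr2L:21143854-21143941), inside the coding gene pths, stood at 62.4, 50.7, 94.3 and 59.4. All 3 symbols name methylation guides of ribosomal RNA. The 3 genes were chosen for a summit with a coding end within 500 bp in all 4 replicates, so both traits follow from the choice.

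By the kind of guide that the symbol gives, 18 of 101 methylation guides were marked (17.8%), 9 of 117 pseudouridine guides (7.69%) and 4 of 51 others (7.84%). The guides also differed in position, with a median distance to a coding end of 817 bp for methylation guides, 1427 bp for pseudouridine guides and 1193 bp for the others. The part of that distance in the difference was not tested.

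Of the miRNA genes, mir-4949 and mir-14 were called without a coding end. For mir-4949 (chr3R:31219274-31219372, inside ATPsynC, a subunit gene of the mitochondrial ATP synthase) the summits stood at percentiles 35.0, 93.5 and 78.8 in replicates 2 to 4, with scores of 7.16, 29.7 and 36.8, and lay 557 to 620 bp from an end of the host. They were high in replicates 3 and 4, lower in replicate 2 and absent in replicate 1.

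The gene mir-14, a regulator of cell death and fat metabolism in flies, was the sole marked small RNA gene more than 2000 bp from a coding end (chr2R:9553762-9553824). Its summits lay 77 and 11 bp outside the hairpin in replicates 2 and 3, and inside it in replicate 4, 5 bp from an end. These summits had scores of 3.17, 4.24 and 15 and percentiles of 4.63, 5.21 and 26 in replicates 2 to 4. They sat at least 5550 bp from the nearest coding gene end and 173 to 255 bp from an end of lncRNA:CR43651, which contains the hairpin. Within 500 bp of the hairpin the rank was low in all 3 replicates, and replicate 1 had no summit. The low rank depended on that window. The mean percentile, with absent summits included, was 8.97 ± 11.6 at 500 bp and 38.9 ± 14.6 in a window of 1000 bp (SD, n = 4 each). Higher-ranked summits thus lay between these limits.

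Small RNA summits more than 1000 bp from a coding end were few and mostly at miRNA genes. There were 11 among the 194 members, with 0, 4, 4 and 3 in replicates 1 to 4, in 8 regions. They made up 5.24% ± 3.64 of the members (SD, n = 4). Away from small RNA ends, 92, 201, 279 and 409 summits in replicates 1 to 4 also lay this far from a coding end. Those came from lists of 3518, 4969, 5236 and 5313 summits, so such distant summits were not particular to small RNA genes. Besides mir-14, the genes were chosen after their values were seen. At mir-282 (inside lncRNA:CR43626) summits lay 203 and 178 bp away in replicates 3 and 4, at percentiles 13.6 and 20.9. At mir-8 (inside lncRNA:CR43650), a regulator of larval growth, a summit in replicate 4 alone lay 55 bp away at percentile 18.1 and 3622 bp from a coding end. Single summits also lay by mir-31a (replicate 2, percentile 11.9), mir-276a (replicate 3, 6.19), mir-967 (replicate 2, 6), mir-4957 (replicate 3, 0.382) and snoRNA:Or-aca5 (replicate 2, 0.845). The highest percentile in this set was the 26 of mir-14 in replicate 4, and 5 of the 8 regions came from 1 replicate each.

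**Figure D5:**
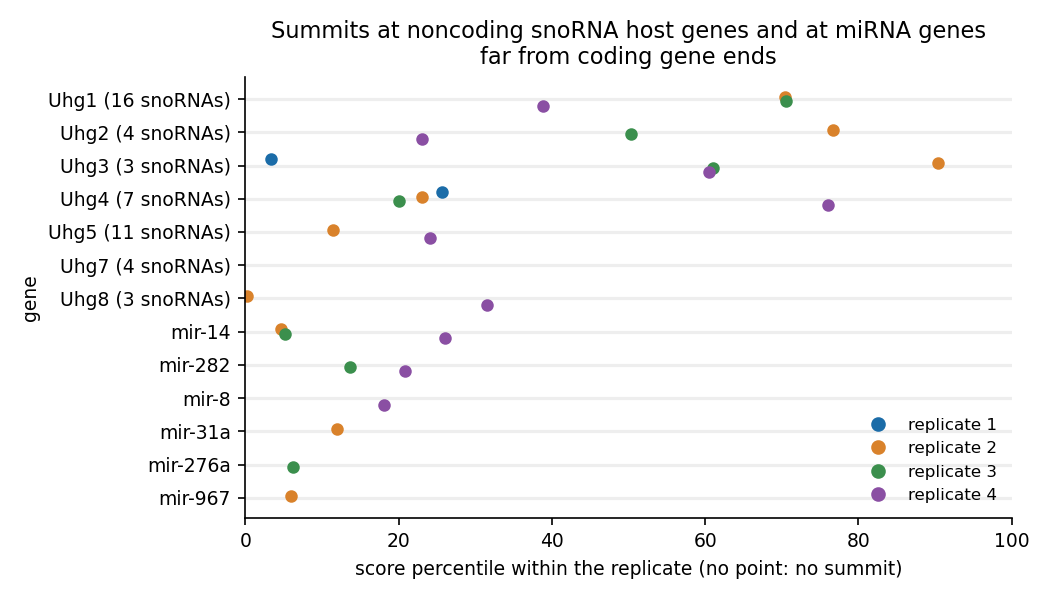
Score percentile within the replicate (horizontal axis) of the highest summit within 500 bp of each noncoding snoRNA host gene (Uhg) and of miRNA genes with a summit over 1000 bp from a coding gene end (mir-4957 is not drawn); each point is a replicate, and a replicate without a summit has no point. Uhg3 and Uhg4 have points in all 4 replicates, and no miRNA gene drawn has a point in replicate 1 or above the percentile of 26 at mir-14 in replicate 4. The highest summits at mir-4957 stood at percentiles 13.1, 39.0 and 71.6 in replicates 2 to 4, and lay 180 to 325 bp from a coding end. The Uhg points include summits with a coding end within 500 bp, as at Uhg3.

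Most miRNA genes with a steady summit had it together with a coding end. For mir-11182 (chr2R:18180151-18180205, beside CG5726) the percentiles were 87.5, 44.4, 62.2 and 74.9 in replicates 1 to 4. For mir-3645 (chrX:5622280-5622416, inside Mlc-c, a myosin light chain gene) they were 42.0, 82.3, 52.6 and 87.3, and for mir-1008 (chr2R:10885533-10885589, inside CG18004) 57.7, 85.5, 62.2 and 51.7. These genes too were chosen for a summit with a coding end within 500 bp in all 4 replicates. Their summits lay 132 to 212 bp, 143 to 202 bp and 391 to 444 bp from the coding end.

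Lists of well-studied miRNA genes are given beside the whole class, in which 16 of 260 genes were marked (6.15%) and 236 had no summit in any replicate. Of 16 widely expressed miRNA genes 3 had a summit in any replicate (mir-14, mir-8 and mir-276a) and 1 was marked (mir-14), a share near that of the class. Among the others, bantam (listed as mir-ban), which promotes growth and blocks cell death, lay 7366 bp from the nearest summit, and mir-1, a muscle miRNA, lay 24174 bp away. None of the 3 genes of the let-7 complex, which acts at metamorphosis, had a summit, with the nearest 13264 bp away. None of the 8 genes of the early embryo cluster (mir-309 and neighbours, nearest 7814 bp) and none of 14 genes of testis clusters (nearest 3290 bp) had one. The hairpin is not the start of the primary transcript, which can lie far off, and transcript starts were not used here.

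For tRNA genes, 4 of 290 had a summit in any replicate, each beside a coding gene, and all 4 were named after their values were seen. For tRNA:Arg-TCT-1-1 (chr2R:11652367-11652439) the percentiles were 41.2, 32.9 and 21.5 in replicates 2 to 4, and the summits lay 102 to 239 bp from CG34228. For tRNA:His-GTG-1-3 (chr2R:12334995-12335066) they were 29.3, 56.4 and 43.0 in replicates 2 to 4, with summits 162 to 218 bp from CG8490. For tRNA:Phe-GAA-1-2 (chrX:6744471-6744543) they were 35.6, 54.6 and 39.8 in replicates 1 to 3, with summits 173 to 266 bp from RpL17. The fourth, tRNA:Met-CAT-1-1, shared 1 summit with tRNA:Arg-TCT-1-1 in replicate 2. No tRNA summit stood nearer its tRNA gene than 130 bp.

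The 32 snRNA genes included U1, U2, U4, U5, U6, U7, U11, U12 and 7SK genes, and the nearest summit to any of them lay 622 bp from snRNA:U5:35D (chr2L:15751557-15751682). The next lay 936 bp from snRNA:7SKa (chr3R:7474553-7474996), and the 3 U6 genes were 12444 to 13571 bp from a summit although each had a coding end within 500 bp. The single-copy gene snRNA:U7, whose RNA serves the maturation of histone mRNA, lay 77837 bp from a summit.

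Many tRNA and snRNA genes have near-identical copies, and how reads that match several places were treated is not given in the sources used here. Of 38 tRNA genes whose numbered sequence family has 1 member, 1 had a summit, against 3 of 252 whose family has several, and of the 6 snRNA kinds with 1 gene none had a summit. The part of repeated sequence in the low counts was not tested beyond these values.

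The coding genes that make and process these RNAs were marked almost throughout. Of 39 listed genes found by symbol in RefSeq, 36 were marked, 92.3%, against 36.1% of all coding genes, and each had a summit in at least 2 replicates. All 14 genes of RNA polymerase III and its factors were marked, and so were the 3 genes of the snRNA activating complex, 6 of 7 miRNA processing genes, 6 of 8 snoRNP core genes and all 7 chaperone and end-processing genes. The list was not matched to other coding genes for expression, which was not measured here.

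Marked genes ranked from high to low, and the examples were chosen after their values were seen. Polr3D, a subunit of RNA polymerase III, stood at percentiles 88.0, 99.9, 99.8 and 84.2 in replicates 1 to 4. La, which binds the ends of new polymerase III transcripts, stood at 99.7, 95.8, 99.6 and 92.6, and drosha, which cuts primary miRNA transcripts, at 93.4, 79.5, 71.9 and 73.1. All 3 ranked high in all 4 replicates. At the other end, Polr3G, another polymerase III subunit, had no summit in replicate 1 and stood at 24.7, 47.6 and 24.9 in replicates 2 to 4. The polymerase III factor Brf stood at 17.3, 49.7, 9.18 and 77.8 in replicates 1 to 4, low in replicates 1 and 3. The 3 genes not marked were gw, an effector of miRNA silencing (percentiles 44.2 and 75.8), Fib, the methyltransferase of methylation guides (45.0 and 13.5), and Gar1, a partner of pseudouridine guides (20.6 and 18), each with summits in replicates 3 and 4.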

How the data were processed

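H3K4me3 ChIP-seq summit lists of 4 fly replicates were analysed. The submitters' processing notes name MACS2, BWA 0.7.17, SAMtools 1.9, Picard 2.17.11, FastQC 0.11.7 and cutadapt 1.16. Peak-calling settings, duplicate handling, the handling of multiply mapped reads and the build were not given in the sources used here. The authors deposited summits per sample, unpooled, each with a score that looks like −log10 of a p-value or of a q-value, without saying which. The lowest score in each list was 1.31 to 1.36, and a threshold of 0.05 corresponds to 1.301. The score is the authors' and depends on depth, which is unknown, so no counting intervals were computed.

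Gene ends and classes came from the RefSeq table (Release 6 plus ISO1 MT), which has no strand, transcripts or sequence, so the planned motifs, signed positions and sequences were not run. As a check of the build, 60.3% to 89.0% of an arm's summits fell at most 500 bp from one of its own gene ends, against at most 22.9% with other arms. Of the small RNA genes, 24 off the 6 arms (22 mitochondrial, 2 placed on X and Y) were left out, as was 1 summit on an unplaced scaffold. Positions are 1-based.

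Genes were named by rule: per class the 6 genes called without a coding end and the 3 with a coding end in all 4 replicates that had the highest mean percentile (absence counted as 0), any snRNA gene with a summit, and listed miRNA genes. Of 40 listed processing genes 39 matched. The members, lists and tests were chosen with earlier results of these data known. Alternatives were windows of 250 and 1000 bp, equal numbers of summits, a minimum score of 5, each replicate left out (then 2 of 3 replicates were required), other coding distances, replicate numbers and chaining distances. The gene calls were tested on simulated summits planted at known small RNA genes, and the sign-flip test on a case with a known p-value. The other steps were not tested in this way. Computation used matplotlib 3.10.9, scipy 1.17.1, pandas 2.3.3 and numpy 2.4.6 under Python 3.11.15.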

Additional observations from a re-analysis of the deposited data

Results flagged for a closer look

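Values in which 1 of the 4 replicates stood apart from the others (Dixon's test at the 95% level) were 7 of 53 tested. The rate of about 1 in 20 by chance holds for independent series of continuous values. These series overlap and include small counts, so the number flagged cannot be set against that rate. The share of small RNA genes with a summit was 4.82% in replicate 1 against 7.29% to 7.52% in the others, and summits with a coding end nearest a tRNA gene numbered 0 in replicate 1 against 2 in each other replicate. Summits at coding ends only numbered 3041 in replicate 1, against 4290 to 4512 elsewhere. The share of all summits without a coding end was 15.3% in replicate 4, against 12.8% to 13%.

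At snoRNA:Me18S-C1831 the percentile in replicate 3 was 88.0, against 67.7 to 70.9, and at snoRNA:Me28S-A2113 that in replicate 1 was 33.5, against 78.8 to 86.1. At snoRNA:Or-aca5, in Uhg4, replicate 4 stood at 76.0, against 20.1 to 25.6. Outside the 6 arms, 1 summit with a score of 6.77 lay on an unplaced scaffold in replicate 3.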

How the results depend on the processing

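No paired analysis was possible because all samples analysed belong to 1 group, so no samples could be paired across groups. The percentile differences pair kinds of summit within a list. Of 95 values under other settings, 69 either moved by less than the tolerance for their kind (SD between replicates, binomial interval or 1.5 times) or, for percentile differences, kept their sign, whatever their size. With a window of 250 bp, summits per replicate were 29, the share without a coding end 31.3%, marked genes 24 and those without a coding end 6. With 1000 bp these were 98 summits, 112 genes and 26 genes, the median distance was 498 bp, and the percentile difference of summits with a coding end reversed to 1.33. Scores of at least 5 left 38.8 summits per replicate and a percentile difference of -7.45 for summits without a coding end. Equal numbers of summits left 36, with 18.8% without a coding end, 33 marked genes and 4 without a coding end, and a percentile difference of -1.33 for summits without a coding end. With no coding end within 1000 bp the share was 5.24%, genes 1 and recurring regions 12.5%. Within 2000 bp the share was 2.86%, genes 1 and the distance 57.3 bp. With no end of any other gene outside the 4 classes the share was 18.2%, genes 2 and the distance 184 bp. Requiring all 4 replicates gave 25 genes and 3 without a coding end, and 66.7% of regions recurred with chaining at 500 bp, against 24.2% at 100 bp. The causes were not tested.

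Leaving out a replicate gave 46 to 52.7 summits, 23.9% to 27.2% without a coding end, 53 to 65 marked genes, 12 to 14 without a coding end, differences of -28.1 to -17.6 and -6.39 to -1.76 points, 43.3% to 54.2% of regions, distances of 97 to 138 bp and 36 to 39 processing genes. Of 242 values for 25 named genes, 30 moved by more than the SD between replicates. For genes named for a summit with a coding end, the other settings for coding ends and other gene ends could not remove that summit. Those values equalled the main ones, so they say nothing about stability. With 4 replicates the exact sign-flip permutation test cannot reach 0.05, depth is unknown, and a summit absent from a list shows only that none was called there.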
